A study of Mus musculus with 24 samples.

Results

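Long intergenic noncoding RNAs (lincRNAs) of mouse liver and kidney were examined across Nudt12 knockout and wild-type animals and across the day. All genes with the biotype lincRNA and a mean of at least 50 normalized estimated counts in at least 1 of 3 deposited tables were taken, leaving out 5 transcripts by name (Gm30948, Gm38246, Gm31508, Gm42428 and AI506816). That gave 249 of the 50765 genes in the tables and 249 of the 5499 lincRNAs. Members were chosen by these measured mean levels, so the levels are a description and are not tested. The members nearest to the limit were A430046D13Rik, E230001N04Rik and Gm48898, with highest means of 50.4, 50.6 and 50.6. Just outside it lay Gm40264, Gm43678 and Gm13632, at 49.2, 49.4 and 49.9. Of the members, 208 reached the level in kidney, 133 in the liver cohort and 122 in the liver time course, 86 in all 3 tables and 108 in kidney alone. By name, 142 carry a predicted-gene number (Gm), 59 a RIKEN clone name and 14 a sequence-clone name, and 14 stand on the lists of transcripts with a known role that are used below.

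The study compared Nudt12-/- with Nudt12+/+ mice. NUDT12 is a nudix enzyme that removes the NAD cap from RNA 5′ ends and hydrolyses NADH. The knockout animals came from 1 line with a 58 bp deletion in exon 6, made by Cas9 with a pair of guides in B6D2F1/J embryos and crossed to C57BL/6J, and the deletion takes away catalytic residues of the nudix motif and brings in an early stop codon. Liver and kidney of mice aged 3 to 4 months, with no time of collection in the labels, gave 3 wild-type and 3 knockout liver libraries and 2 wild-type and 3 knockout kidney libraries; the third kidney wild-type sample was not analysed here. A separate time course held livers of mice aged 4 to 6 months, kept for 10 days under 12 h light and 12 h dark, with 1 wild-type and 1 knockout library every 4 h from lights on (ZT0) to ZT20. All libraries were ribosome-depleted, stranded total RNA, read as single 100-base reads. Nothing in the labels says that libraries came from separate animals, so p-values measure only the spread between these libraries.

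LincRNAs are transcribed, spliced and often polyadenylated like mRNAs but hold no long reading frame. Some stay in the nucleus as parts of nuclear bodies, some host small nucleolar RNAs or microRNAs in their introns, and some act on a neighbouring gene. In liver many coding genes follow the day through the clock, a feedback loop of activators (Arntl, Clock) and repressors (Per, Cry, Nr1d) whose outputs include Dbp.

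Nudt12 itself lay between 986 and 1301 in the wild-type and between 211 and 235 in the knockout livers of the cohort, between 1512 and 1583 against 261 to 348 in kidney, and between 613 and 1180 against 177 to 254 in the time course, with no overlap in any table. The tables were normalized separately, and each library summed to between 16.9 and 27.8 M after that normalization, so the read depth is not shown by the files. The 3 collecting duct markers (Aqp2, Avpr2 and Atp6v1g3) were listed at 0 in every liver library except for traces of Atp6v1g3 in the time-course knockouts, at most 0.0587 ppm of the library sum, and the proximal tubule list summed to at most 6.78 ppm of the library sum there, against at least 25894 ppm in kidney. Hepatocyte markers summed to at least 53282 ppm in liver and to at most 1512 in kidney. Mitochondrial RNA took 16.1% of kidney wild type 1 and 7.39% of liver wild type 1, the highest share in each table, where the other libraries lay between 7.40% and 9.54% and between 2.27% and 4.54%. In bulk RNA fewer cells of a type and less RNA per cell cannot be told apart.

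Malat1, the nuclear-speckle RNA, and a short stretch of chromosome 17 made up most of the lincRNA signal. Malat1 had 366052 and 387669 normalized estimated counts in the wild-type and 264542, 374972 and 351708 in the knockout kidneys, and 49523 to 88064 in the cohort livers. It took 1.05% to 1.53% of each kidney library and 0.203% to 0.366% of each cohort liver library, so its share was higher in every kidney library than in any of these liver libraries. Per kilobase of exon, Malat1 stood at a mean of 49977 in kidney and 10400 in the liver cohort. Neat1, the scaffold of paraspeckles, stood at 707 and 305 per kilobase.

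AY036118, Gm42418 and Gm26917 lie within 6 kb of each other on chromosome 17 (GRCm38, 39843013 to 39848788), a stretch known to carry ribosomal RNA sequence. Per kilobase of exon, AY036118 had the highest mean of all members in each table, 114210 in kidney and 173992 in the liver cohort. Its single libraries were far apart: 140993, 98564 and 344362 in wild-type and 1872, 320191 and 57586 in knockout liver. Gm42418 spread as widely in liver, from 1588 to 270790, whereas Gm26917 lay between 10236 and 19636. Together the 3 took 0.0964% to 1.66% of the cohort liver libraries and 0.138% to 0.823% of the kidney libraries. The libraries were ribosome-depleted, and how far the leftover of that step sets these values was not tested. Without the 3, all other members together took 1.36% to 1.89% of the kidney, 0.363% to 0.604% of the cohort liver and 0.590% to 0.900% of the time-course libraries.

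After these, the highest per kilobase in liver were AW112010, a transcript known from immune cells, at 1653, and Gm12840 at 1503. In kidney Gm48275 came next, at 4758, then Gm12840 at 1761. AW112010 had 1201 to 1591 normalized estimated counts in the 6 cohort livers and 55.0 to 81.1 in the 5 kidneys. Gm12840 was nearly level between the tissues, at 695 to 1455 in liver and 780 to 1695 in kidney.

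Most members, 223 of 249, were above 0 in both tissues. As a share of the library sum, 53 members (21.3%) were at least 10 times higher in kidney than in the liver cohort or listed at 0 in liver, and 27 (10.8%) were at least 10 times higher in liver or listed at 0 in kidney. Among the 12638 protein-coding genes at the same level the shares were 11.6% and 3.90%. Another 65 members lay within 2-fold between the tissues, and the median ratio of kidney to liver share over the 223 members above 0 in both was 2.17, against 2.03 for those protein-coding genes. The tables were scaled apart, so these ratios carry no test, and membership through either tissue favours genes that are high in 1 of them.

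**Figure D1:**
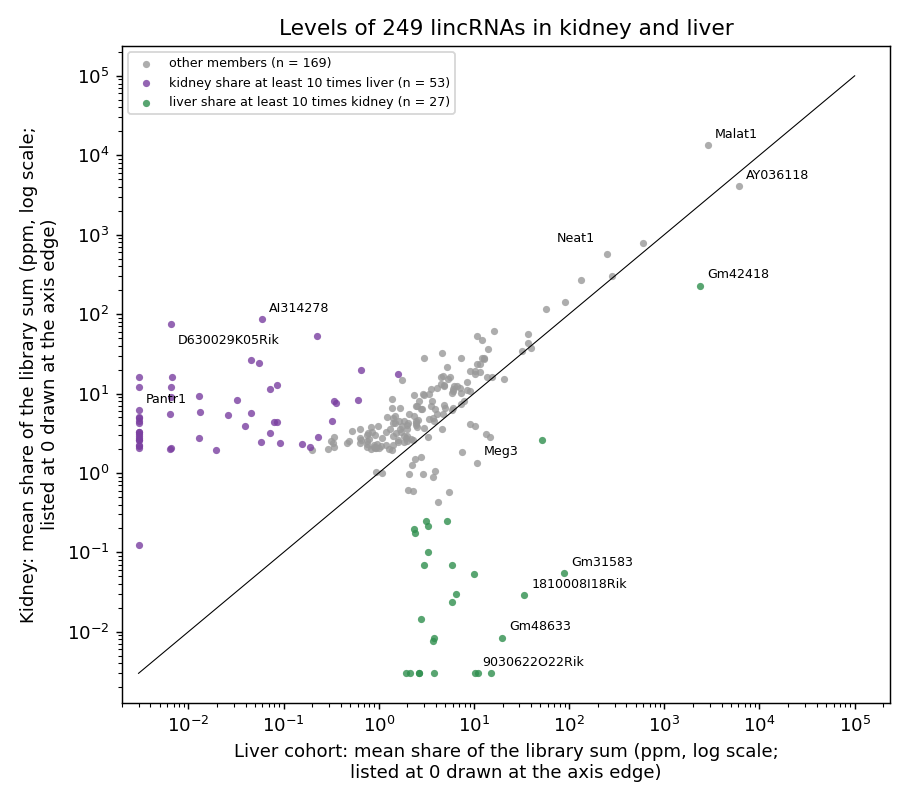
Mean share of the library sum (ppm) of each of the 249 lincRNAs in the liver cohort (6 libraries, horizontal) and in kidney (5 libraries, vertical), both on log scales, with genes listed at 0 drawn at the lower end. The 53 kidney members lie far above the line of equal share and the 27 liver members far below it, and Malat1 and Neat1 lie above the line.

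D630029K05Rik and AI314278 were the most abundant of the kidney members. D630029K05Rik had 2228 and 1816 in wild-type and 1952, 1806 and 1892 in knockout kidney, and 1 of the 18 liver libraries held any of it. AI314278 had 1947 to 2584 in kidney and 0 to 2.96 in the cohort livers. AI314278 lies 13172 bp from Fzd4, a Wnt receptor that was also higher in kidney, at a mean of 2192 against 501.

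For 4 kidney members the neighbouring gene is given as an example, chosen after the values were seen. Pantr1 starts near Pou3f3, a factor of the distal nephron, 926 bp away on the other strand, and had 161 and 217 in wild-type and 111, 166 and 146 in knockout kidney; both genes were listed at 0 in every liver library. Lhx1os lies 125 bp from Lhx1, a factor of nephron formation, had 98.6 to 185 in kidney and was at 0 in liver with Lhx1. Gm53 lies 6589 bp from the homeobox gene Hoxb9 and had 199 to 265 in kidney. Tmem61 lies 6533 bp from Bsnd, the barttin subunit of kidney chloride channels, and had 57.2 to 184. Across the kidney members with a measured nearest protein-coding gene, that gene was also at least 10 times higher in kidney for 20 of 48 (41.7%), against 18.2% for the members that were not restricted to a tissue.

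Apart from Gm42418, liver members were led by Gm31583, a transcript of 3556 exon bases, with 1034 to 2300 in wild-type and 2060 to 3259 in knockout livers of the cohort and 0.893 to 2.05 in kidney. AW112010 came next, then 1810008I18Rik, with 374 to 908 in wild-type and 897 to 1244 in knockout liver, and at most 2.59 in kidney. Gm48633, with 394 to 602 in liver, lies 27587 bp from Apob, which encodes the apolipoprotein of very-low-density lipoproteins, and 1 kidney library held any of it. 9030622O22Rik, with 184 to 293 in liver and 0 in kidney, lies 2674 bp from the liver factor Foxa2, whose means were 257 in liver and 0.215 in kidney. For 8 of 25 liver members (32%) the nearest measured protein-coding gene was at least 10 times higher in liver too, against 2.10% for the members not restricted to a tissue.

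The lowest ratios of kidney to liver share belonged to 8 members listed at 0 in every kidney library: 9030616G12Rik, 9030622O22Rik, Gm8883, Gm40770, Gm48419, AC154378.1, Gm11008 and Gm12718. Their cohort liver means lay between 49.1 for Gm12718 and 379 for Gm8883. Gm48419 has a near copy, Gm7969, described below, which held 2.03 to 5.29 in the kidney libraries. The highest ratios among members above 0 in both tissues belonged to D630029K05Rik, Gm12678, Gm42397, AI314278 and Gm53, whose kidney means were 1939, 415, 303, 2229 and 231. Their cohort liver means were all at or below 1.47. A further 18 members, such as Pantr1 and Lhx1os, were listed at 0 in every cohort liver library.

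Among the 14 members with a known role none was called in any test below. Meg3, an imprinted transcript, was higher in liver (86.5 to 567) than in kidney (18.2 to 55.8). Snhg18, a host of small nucleolar RNA, was higher in kidney (439 to 563 against 7.83 to 22.9), while Snhg6, Snhg12 and Snhg20 had cohort means of 84.6, 123 and 89.0 in liver and 122, 331 and 180 in kidney. Mir17hg, the host of the miR-17 to miR-92 cluster, had a mean of 99.0 in kidney and 44.6 in liver. 2900097C17Rik, the mouse Norad that binds Pumilio proteins, had 6507 to 7382 in kidney and 2901 to 3958 in liver, and 1700020I14Rik, the mouse Cyrano, had means of 2998 and 1459. Ftx and Jpx, from the X-inactivation centre, had 248 and 65.4 in kidney, and 76.1 and 50.3 in liver. Pvt1 and Lncpint had means of 68.6 and 360 in kidney and 56.1 and 214 in liver.

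The time course showed a daily rhythm in 29 of the 216 members that passed the filter of a mean of at least 1. A 24 h cosine with a genotype term was fitted with limma and p-values were adjusted over all 18702 genes; an adjusted p under 0.05 was called. The members' share was 13.4%, where 5.8% of all genes tested were called, 7.58% of all genes at the members' level and 7.71% of the protein-coding genes at that level. At an unadjusted p under 0.05 stood 67 members (31.0%), where 21% of all genes did. The amplitude, from the mean to the peak, ran from 0.28 to 4.50 on the log2 scale with a median of 1.0, against 0.58 over all 1085 rhythmic genes. Peaks were spread over the day: 6 members peaked from ZT0 to ZT6, 5 from ZT6 to ZT12, 8 from ZT12 to ZT18 and 10 from ZT18 to ZT24. Among all rhythmic genes these 6 h windows held 15.2%, 27.1%, 24.7% and 33.0%.

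Fitted in each genotype apart, the peaks of wild type and knockout lay within 3 h of each other for 28 of the 29 members, with a median difference of 0.587 h. The exception was E230001N04Rik, at 3.40 h. The 29 were selected by 1 cosine shared by both genotypes, which favours genes with like peaks, so this describes the called members and is no test of phase. With 1 library per time and genotype, both genotypes were needed for these calls: wild-type or knockout libraries alone gave 0 calls among all genes. Leaving out both libraries of a time point left between 10 and 15 members called, and 5 of the 29 were called whichever time was left out: Gm42031, Gm48275, AC102496.1, Gm36041 and Gm10804. Another 8 lost the call whichever time was left out: 1810008I18Rik, 4732419C18Rik, Gdap10, E230001N04Rik, Gm16548, Gm44421, Gm26547 and Gm20939.

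**Figure D2:**
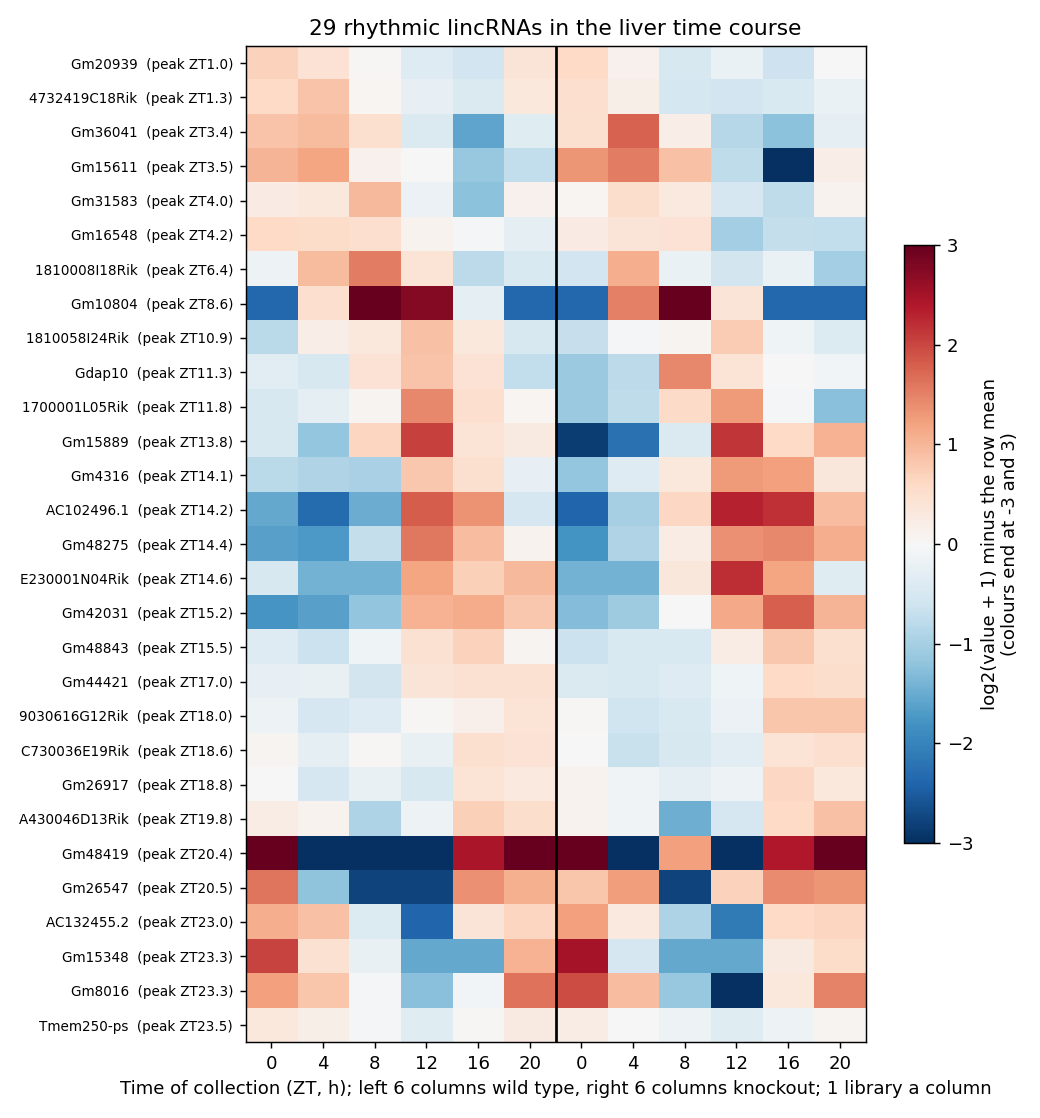
Values of the 29 rhythmic lincRNAs in the 12 time-course libraries, as log2(value + 1) minus the mean of each row, ordered by fitted peak from top to bottom. Columns are times of collection (ZT, h), 6 wild type on the left and 6 knockout on the right, and the band of high values moves from ZT0 and ZT4 in the upper rows through ZT12 and ZT16 in the middle to ZT20 and ZT0 at the bottom in both genotypes.

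In the light phase, Gm36041 on chromosome 10 (122386892 to 122435033, plus strand) rose to 109 and 116 at ZT0 and ZT4 in wild type and fell to 19.4 at ZT16; in knockout it had 83.2 and 206 and fell to 24.9. Its amplitude was 1.26 ± 0.14 (SE, log2) with a peak at ZT3.4 ± 0.42 h (limma, adjusted p = 0.00112). The values at ZT0 and ZT4 were higher than those from ZT12 to ZT20 in both genotypes. Its neighbour Avpr1a, a vasopressin receptor 13466 bp away on the same strand, was rhythmic as well, with a peak at ZT23.7.

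Gm10804, antisense to the tetraspanin gene Cd82, had the largest amplitude among rhythmic members without a copy elsewhere. It had 77.0 at ZT8 and 33.4 at ZT12 in wild type, 40.6 and 5.76 in knockout, and 0 at ZT0 and ZT20 in both. Its amplitude was 3.02 ± 0.35 (limma, adjusted p = 0.00143) and its peak ZT8.6. In kidney it was far higher, at 959 to 1889. Cd82 itself was not called rhythmic.

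1810008I18Rik and 1700001L05Rik are the rhythmic members with a clock-type E-box (CACGTG) in the promoter. The liver-restricted 1810008I18Rik rose from 491 at ZT0 to 1064 and 1577 at ZT4 and ZT8 and fell to 315 at ZT16 in wild type. In knockout it had 1162 at ZT4 and 268 to 476 at all other times, so the genotypes differed most at ZT8, with 472 in knockout. Its amplitude was 0.85 ± 0.18 with a peak at ZT6.4 (limma, adjusted p = 0.0391). 1700001L05Rik had 302 at ZT12 in wild type and 269 in knockout, against 78.2 and 50.3 at ZT0, with an amplitude of 1.0 ± 0.16 and a peak at ZT11.8 (limma, adjusted p = 0.00900). The wild-type highs of both lay in the light phase or at its end.

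Their promoters are shown because they hold the matched letters, and that of Gm15348 because it holds the D-box-like TTATGTAA. Each runs from 250 bases before to 50 bases after the start (RefSeq, GRCm38.p6), 5′ to 3′ on the strand of the gene, with 3 motifs in capitals, matched on either strand: the E-box CACGTG, the core of a ROR and REV-ERB element (TAGGTCA) and that D-box-like motif. 1810008I18Rik is on chromosome 7, plus strand (chr7:65802787-65803086), 1700001L05Rik on chromosome 15, minus strand (chr15:83367248-83367547), and Gm15348 on chromosome 8, minus strand (chr8:12719078-12719377).
1810008I18Rik: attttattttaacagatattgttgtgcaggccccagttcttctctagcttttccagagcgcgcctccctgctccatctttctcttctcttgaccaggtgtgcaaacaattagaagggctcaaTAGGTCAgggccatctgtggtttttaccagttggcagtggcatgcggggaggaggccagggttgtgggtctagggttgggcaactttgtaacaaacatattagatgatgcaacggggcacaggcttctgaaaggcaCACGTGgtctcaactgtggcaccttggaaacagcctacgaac
1700001L05Rik: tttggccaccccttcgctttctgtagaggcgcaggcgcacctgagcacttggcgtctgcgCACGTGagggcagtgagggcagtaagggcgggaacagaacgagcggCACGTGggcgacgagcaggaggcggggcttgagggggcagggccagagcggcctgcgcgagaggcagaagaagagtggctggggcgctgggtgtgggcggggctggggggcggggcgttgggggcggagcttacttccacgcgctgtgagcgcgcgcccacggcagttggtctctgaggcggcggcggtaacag
Gm15348: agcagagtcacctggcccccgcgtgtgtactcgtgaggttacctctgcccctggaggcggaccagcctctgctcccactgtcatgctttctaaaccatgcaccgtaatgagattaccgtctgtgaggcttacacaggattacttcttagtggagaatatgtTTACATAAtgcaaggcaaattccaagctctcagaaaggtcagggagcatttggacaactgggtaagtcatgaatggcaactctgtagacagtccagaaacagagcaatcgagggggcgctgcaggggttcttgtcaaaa

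Of the 249 members 122 had a promoter in the table, and 17 of these were rhythmic. CACGTG stood in 2 of the 17 and in 15 of the 122; it stood in 7.15% of all 32851 promoters and in 8.09% of the 27025 genes. TAGGTCA stood in 1 of the 17, in 5 of the 122 and in 2.97% of all genes, and TTATGTAA in 1, in 3 and in 1.11%. No pair of these motifs overlapped in the 3 promoters shown. These matches describe the letters of 300-base windows and say nothing of binding.

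Gm15348 was low in liver: its wild-type time-course values were 10.8 at ZT0, 2.97 at ZT4 and 0 at ZT12 and ZT16, and the knockout had 15.3 at ZT0. In kidney it had 158 to 241. The amplitude was 1.67 ± 0.33 with a peak at ZT23.3 (limma, adjusted p = 0.0271), on values near the low end of the table.

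The nearest protein-coding gene was tested for 25 of the 29 rhythmic members and was itself rhythmic for 7 of them (28%). The share was 14 of 145 (9.66%) for the members not called rhythmic and 7.71% over all protein-coding genes at the members' level. The difference was not tested. Among the 7, Gdap10, E230001N04Rik and Gm16548 lost their own call whichever time was left out, as given above. Gm15611 lies 1078 bp from Crot, the peroxisomal carnitine octanoyltransferase, on the same strand, and the pair peaked at ZT3.5 and ZT3.1. Gm15889 lies 6121 bp from Herpud1, a gene of endoplasmic reticulum protein quality control, and the pair peaked at ZT13.8 and ZT12.5. 9030616G12Rik and Mettl7b, 10209 bp apart, peaked at ZT18.0 and ZT17.8.

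Gdap10 overlaps Nampt, the rate-limiting enzyme of NAD salvage, on the same strand. It peaked at ZT11.3 (limma, adjusted p = 0.0400) and Nampt at ZT14.1 (limma, adjusted p = 0.00619). Where exons overlap on 1 strand, reads of such a pair cannot be told apart. E230001N04Rik, 5193 bp from the glucocorticoid-induced Fkbp5, peaked at ZT14.6 and Fkbp5 at ZT15.2, but it reached at most 11.4 in any liver library of the time course. Gm16548 overlaps Selp and F5 on the other strand and peaked at ZT4.2, while the coagulation factor gene F5 peaked at ZT12.0. Avpr1a, described above, is the remaining rhythmic neighbour.

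Gm15889 had the largest amplitude of the members peaking from ZT12 to ZT18 outside the shared-sequence transcripts described next. It had 104 at ZT12 in wild type and 111 in knockout, against at most 51.1 at any other time. AC132455.2 was lowest where Gm15889 was highest, with 205 and 227 at ZT0 and 17.5 and 21.3 at ZT12; its amplitude was 1.42 ± 0.25 and its peak ZT23.0 (limma, adjusted p = 0.0150). The smallest amplitude was that of Tmem250-ps, between 479 and 775 in wild type and between 479 and 718 in knockout, lowest at ZT12 in both.

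Among the remaining rhythmic members, 1810058I24Rik peaked at ZT10.9 with an amplitude of 0.66, from 171 at ZT0 to 554 at ZT12 in wild type and from 186 to 507 in knockout. Gm31583 peaked at ZT4.0 with an amplitude of 0.64, between 640 at ZT16 and 2947 at ZT8 in wild type. 4732419C18Rik and Gm20939 peaked within the first hours of light (ZT1.32 and ZT0.987). Gm48843, Gm44421, C730036E19Rik, Gm26917, A430046D13Rik and Gm26547 peaked in the dark, from ZT15.5 to ZT20.5. Gm26917 belongs to the stretch with ribosomal RNA sequence, whose share of the time-course libraries ran from 0.244% to 1.41%; the part of that share in its rhythm was not tested.

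Of the 249 members, 99 (39.8%) share at least 200 bases at 90% identity or more with a transcript of another locus, on either strand. Values may be split between copies that match on the same strand, since the libraries were stranded. Matches on the same and the opposite strand were not counted apart. Among members without such a copy, 19 of 119 tested (16%) were rhythmic, and among those with one, 10 of 97 (10.3%).

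Gm42031, Gm48275, AC102496.1 and Gm4316 are such a group, and all peaked between ZT14.1 and ZT15.2. They lie on chromosomes 8, 10, 18 and 8 and share stretches with each other or with Gm43305, a transcript on chromosome 14 that is not a lincRNA by biotype. Gm42031, Gm4316 and AC102496.1 are 92.2% to 93.4% identical over 374 to 614 bases, and Gm42031 is 98.7% identical to Gm43305 over 748 bases. The promoters of Gm42031 and Gm43305 share 294 of 300 bases. The whole 287-base transcript of Gm48275 stands in Gm43305 with 284 bases the same, and without a difference in the left-out Gm42428. Gm48275 shares no such stretch with the other members of the group. The left-out AI506816 shares 381 to 522 bases at 90.8% to 91.9% identity with AC102496.1, Gm42031 and Gm4316. Reads from these loci cannot be told apart where the bases are the same, so the 4 may not be independent. How far shared reads link their values was not tested.

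Gm42031 had 100, 112 and 152 at ZT0, ZT4 and ZT8 in wild type and 717, 750 and 605 at ZT12, ZT16 and ZT20; the knockout had 140, 165 and 351, then 756, 1194 and 704. Its amplitude was 1.65 ± 0.14 (limma, adjusted p = 0.000278), the smallest p of any member. AC102496.1 rose from 50.2 at ZT4 to 892 at ZT12 in wild type and from 48.1 at ZT0 to 1250 at ZT12 in knockout, an amplitude of 2.15 ± 0.22. At ZT8 all 4 were higher in the knockout library than in the wild-type one. The values were 351 against 152 for Gm42031, 457 against 237 for Gm48275, 393 against 89.2 for AC102496.1 and 170 against 68.3 for Gm4316. That wild-type library had the fewest genes above 0 of the time course. The difference was not limited to ZT8: the sum of the 4 was higher in knockout from ZT4 to ZT20. At ZT0 the sum was 361 in knockout against 390 in wild type. Its time-course mean was 1937 in knockout and 1326 in wild type. Gm43305 moved with the 4, with an amplitude of 1.64 and a peak at ZT14.6 (limma, adjusted p = 0.000407). AI506816 peaked at ZT15.4 (limma, adjusted p = 0.00246). The cohort means of Gm43305 were 4379 in wild-type and 2392 in knockout liver, and 35809 and 19880 in kidney. Its libraries overlapped between genotypes in both tissues.

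In the separate liver cohort the same 4 were lower in knockout on average. Gm4316 had 398, 409 and 122 in wild type and 66.8, 50.9 and 57.2 in knockout, with no overlap. AC102496.1 had 981, 1493 and 249 against 302, 40.9 and 40.1, and Gm42031 had 813, 442 and 269 against 216, 224 and 163. AC102496.1 was lower in knockout kidney too, at 248, 130 and 75.0 against 588 and 939. The 4 together summed to 2725, 2850 and 758 in wild-type and 788, 432 and 396 in knockout liver, and to 5066 and 3358 against 1711, 3050 and 1692 in kidney. Liver wild type 3 lay below liver knockout 1, so the summed groups overlapped in liver and did not in kidney. None of the 4 passed the adjusted threshold in limma in either tissue. The authors' deposited adjusted p was 3.3e-05 for Gm4316 and 0.0430 for Gm42031 in liver, and 0.00026 for AC102496.1 in kidney. The deposited log2 fold changes beside these were -2.23, -1.06 and -0.0123. The deposited adjusted p was 0.279 for AC102496.1 in liver and 0.180 for Gm42031 in kidney, and Gm4316 in kidney did not pass there either.

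**Figure D3:**
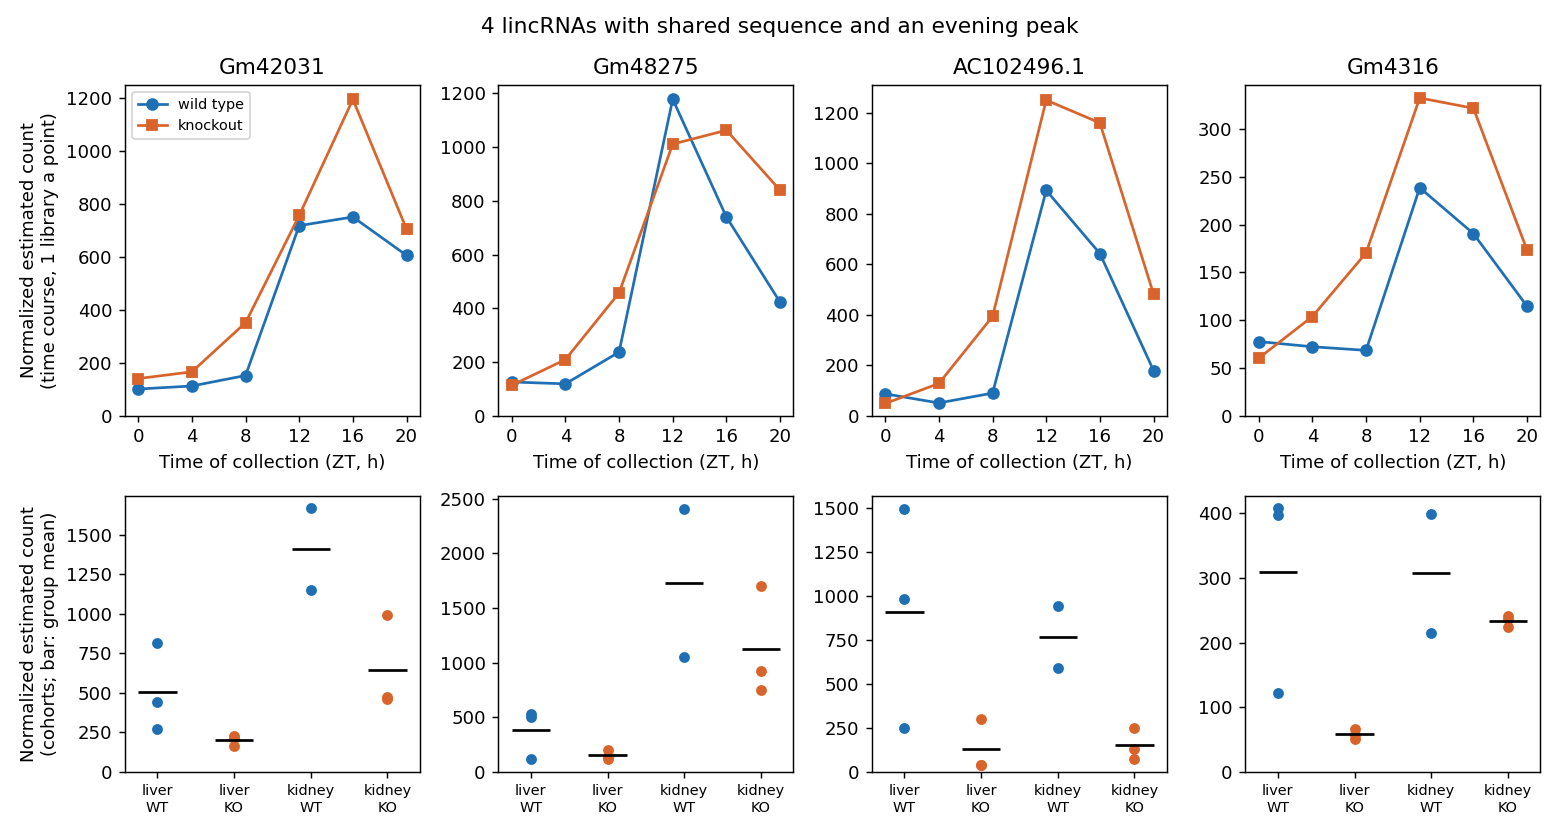
Normalized estimated counts of the 4 lincRNAs with shared sequence. The upper row gives the time course by time of collection (ZT, h; 1 library a point; blue wild type, orange knockout), where all 4 rise between ZT8 and ZT12 in both genotypes. The lower row gives the cohorts of liver (3 and 3 libraries) and kidney (2 and 3), with black bars at the group means, which are lower in knockout in each panel.

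Gm48419 and Gm7969 on chromosome 13 are nearly the same transcript. Their 2884-base transcripts differ at 1 base, which is in capitals in the stretches below, taken from the GENCODE vM21 transcripts on GRCm38 (Gm48419, chr13:67965483-67970239, plus strand; Gm7969, chr13:67949751-67954507, plus strand).
Gm48419: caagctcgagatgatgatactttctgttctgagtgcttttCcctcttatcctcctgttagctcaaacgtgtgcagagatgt
Gm7969: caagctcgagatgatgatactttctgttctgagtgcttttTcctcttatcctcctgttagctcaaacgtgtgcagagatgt

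In the time course Gm48419 was listed at 0 in 5 libraries, and in 4 of those Gm7969 held the signal: 249, 113 and 64.6 in wild type at ZT4, ZT8 and ZT12, and 210 in knockout at ZT4. Wherever Gm48419 was above 0, Gm7969 was at 0. Their sum followed a smoother course, 341, 249, 113, 64.6, 122 and 361 from ZT0 to ZT20 in wild type and 459, 210, 51.8, 0, 118 and 369 in knockout. The amplitude of 4.50 fitted to Gm48419 alone, the largest of all members, thus includes 4 zeros at which the copy held the signal, and the sum was lowest at ZT12 in both genotypes. Gm8016, which is 97.6% identical to both over 1576 bases, had an amplitude of 2.23 and a peak at ZT23.3. In the cohort the sum was 467, 296 and 415 in wild-type and 123, 182 and 197 in knockout liver, all of it under Gm48419.

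Knockout and wild-type livers of the cohort differed in no member at an adjusted p under 0.05: 0 of 218 tested with limma, where 0.0157% of all 19088 genes were called, and the smallest adjusted p of a member was 0.212. At an unadjusted p under 0.05 stood 39 members (17.9%), where 7.99% of all genes did. All genes include those below the members' level of 50, and no share at that level was taken for any genotype comparison. Of the 39 members 15 were higher in knockout and 24 lower. Of the 1526 genes of any kind at such a p, 742 were higher (3.89% of all genes tested) and 784 lower (4.11%). Knockout and wild-type libraries did not overlap for 41 members (18.8%), where this held for 13.9% of all genes tested. The median log2 difference was -0.07, against 0.00 over all genes, and 43.6% of members were higher in knockout, against 50.3% of all genes. An adjusted p under 0.05 in the authors' deposited table was held by 9 of 202 members, where 1.38% of all genes held one. Of the 9, 7 were lower in knockout. The limma difference went the same way for each of the 9, but it rests on the same libraries and adds no separate evidence. Of the 5 names left out by the rule, 3 (Gm30948, Gm38246 and Gm42428) would otherwise have been among 252 lincRNAs at the level, while AI506816 has another biotype and Gm31508 lies below the level. Gm30948 was called in liver (limma, log2 difference 5.33, adjusted p = 0.0470). The other 4 did not pass: Gm38246 had a log2 difference of 6.36, Gm42428 of -4.74, Gm31508 of -3.95 and AI506816 of -2.71 (limma, adjusted p = 0.0857, 0.240, 0.0857 and 0.153).

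9430037G07Rik had the smallest p. It had 177, 540 and 474 in wild-type and 39.5, 76.1 and 77.8 in knockout liver, so the groups did not overlap and differed by -2.51 ± 0.46 (SE, log2). In the time course it had 43.7 to 79.7 in wild type and 24.6 to 115 in knockout, and differed by -0.02 ± 0.31. These values all lay below the wild-type livers of the cohort. Cohort and time course were normalized separately and differ in age, so their levels were not tested against each other. The next smallest p after Gm4316 and Gm48419 were those of Gm43042 and Gm48764, which held at 311 to 391 and 350 to 395 in wild-type and 192 to 209 and 201 to 243 in knockout liver. Their values were tight within each group, but Gm43042 has 93 and Gm48764 has 45 copies elsewhere, counted on either strand.

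Gm15408 and D630033O11Rik were the members higher in knockout in the authors' deposited table. Gm15408 had 26.0, 37.1 and 19.8 in wild-type and 84.5, 59.4 and 84.7 in knockout liver, a log2 difference of 1.46 ± 0.34. D630033O11Rik had 24.5, 18.6 and 7.20 against 31.6, 162 and 116. Neither group pair overlapped. In the time course both were lower in knockout on average, by -0.41 ± 0.22 and -1.02 ± 0.35, and D630033O11Rik was highest at ZT0 in both genotypes, at 129 and 123.

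**Figure D4:**
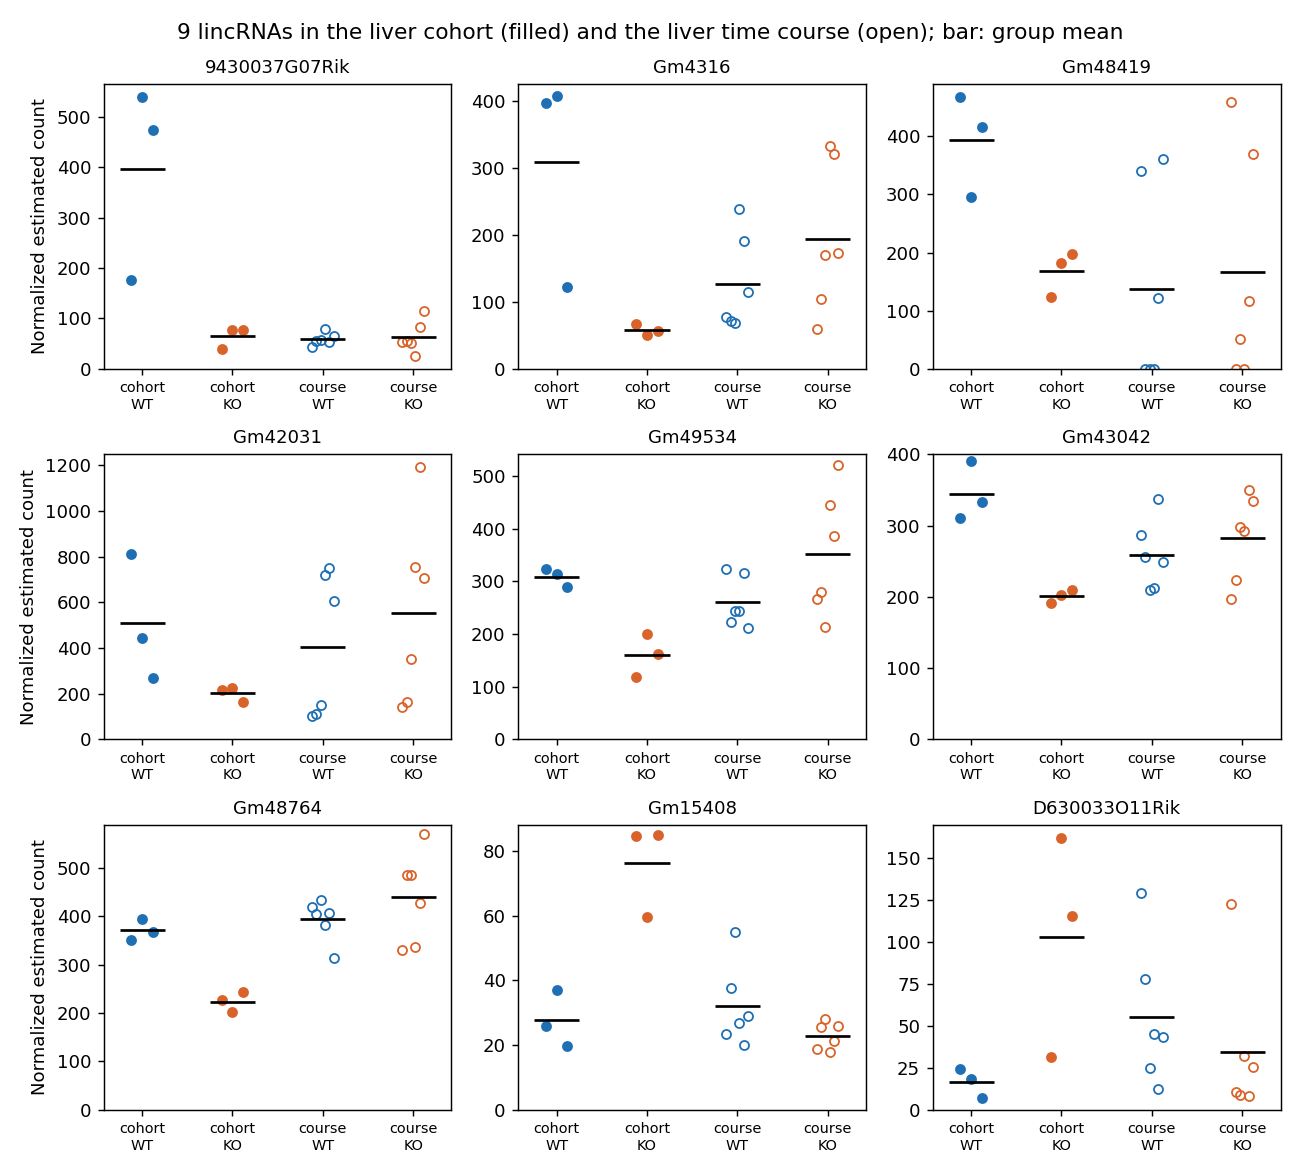
Normalized estimated counts of the 9 lincRNAs with an adjusted p under 0.05 for the liver cohort in the authors' deposited table, ordered by log2 difference. Filled points are cohort libraries (3 and 3), open points time-course libraries (6 and 6; blue wild type, orange knockout), and black bars are means. Each gene separates the filled groups, and the open groups overlap in each panel. The 9 were chosen by their difference in the filled libraries, so that separation is no test.

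The difference between the cohorts was tested as an interaction. This fit held no term for time of collection, so changes over the day counted as spread between libraries. Of 213 members 0 passed in limma, where 0.0111% of all genes did, and 36 (16.9%) stood at an unadjusted p under 0.05, where 8.01% of all genes did. 9430037G07Rik, Gm15408, Gm49534, Gm48764 and Gm4316 had the smallest p, with differences between the knockout effects of the time course and the cohort of 2.5, -1.86, 1.36, 0.87 and 2.75 (limma, adjusted p from 0.234 to 0.342). Within the time course itself 0 of 216 members passed for genotype, where 0.00535% of all genes did, and 11 (5.09%) stood at an unadjusted p under 0.05, where 5.99% of all genes did. The smallest p belonged to 6030443J06Rik, at 21.3 to 56.9 in wild type and 8.15 to 27.3 in knockout, with a log2 difference of -0.93 ± 0.22 (limma, adjusted p = 0.738). Next came Gm42031, AY036118, D630033O11Rik and Gm20045. Of these, Gm42031 was higher in the knockout library at each time, the opposite way to the liver cohort. D630033O11Rik was lower in knockout on average, as given above. The groups did not overlap for 1 member, A330035P11Rik, named after its values were seen, at 13.3 to 28.2 in wild type and 28.7 to 33.9 in knockout, where this held for 0.198% of all genes. For the time course 0 of 209 members had an adjusted p under 0.05 in the authors' deposited table, where 0.0363% of all genes did.

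In kidney 0 of 234 members passed, where 0.0045% of all genes did, and 17 (7.26%) stood at an unadjusted p under 0.05, where 5.4% of all genes did. Of the 17 members 6 were higher in knockout and 11 lower. Of the 1199 genes of any kind at such a p, 605 were higher (2.72% of all genes tested) and 594 lower (2.67%). Groups did not overlap for 56 members (23.9%), where they did not for 20.5% of all genes. AC102496.1 had the smallest p, with a log2 difference of -2.46 ± 0.48 (limma, adjusted p = 0.628). It was the 1 member of 226 with an adjusted p under 0.05 in the authors' deposited table, where 0.489% of all genes had one. The deposited log2 fold change beside it was only -0.0123. Gm11766 had the next smallest limma p, with 81.4 and 52.9 in wild-type and 188, 124 and 232 in knockout kidney. Then came Gm45322, CT025731.4 and Gm10076. Gm10076 had 414 and 361 against 543, 526 and 588.

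The knockout effects in kidney and liver differed for 0 of 203 members in limma, where 0.00545% of all genes passed, and 15 (7.39%) had an unadjusted p under 0.05, where 4.41% of all genes did. Gm34667, Gm43042, Gm15889, Gm15408 and Gm15348 had the smallest p. Gm15889 had 35.9, 11.5 and 20.6 in wild-type and 50.1, 65.8 and 84.5 in knockout liver, and 412 and 462 against 363, 325 and 364 in kidney. Gm15348 had 3.99, 32.3 and 15.3 in wild-type and at most 1.02 in knockout liver, and 187 to 241 against 158 to 209 in kidney. A difference in rhythm between the genotypes passed for 0 of 216 members, where 0% of all genes passed, and 7 (3.24%) had an unadjusted p under 0.05, where 4.78% of all genes did. Gm37494, C730027H18Rik, Gm20649, Meg3 and Gm26809 had the smallest p.

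The liver-cohort values of the rhythmic members were set beside their peak times. Of the 29, 0 passed the adjusted threshold and 11 (37.9%) had an unadjusted p under 0.05 in the liver cohort, against 28 of 189 (14.8%) of the members not called rhythmic and 23.4% of rhythmic genes of all biotypes; neither this share nor the counts by peak time were tested. All 5 members with a peak from ZT6 to ZT12 were higher in knockout livers, with a median of 0.62, as were 82.3% of all rhythmic genes with that peak. From ZT18 to ZT24, 4 of 10 members were higher, with a median of -0.22, against 26.3% of all rhythmic genes. From ZT0 to ZT6, 3 of 6 members were higher, against 38.8%.

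For peaks from ZT12 to ZT18, 1 of 8 members was higher in knockout, Gm15889, and the median was -1.15, where 65.3% of all rhythmic genes were higher, with a median of 0.18. Of the 7 that were lower 4 are the transcripts with shared sequence. The cohort and the time course share no library. The labels give no time of collection for the cohort, and genotype and time cannot be told apart there.

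**Figure D5:**
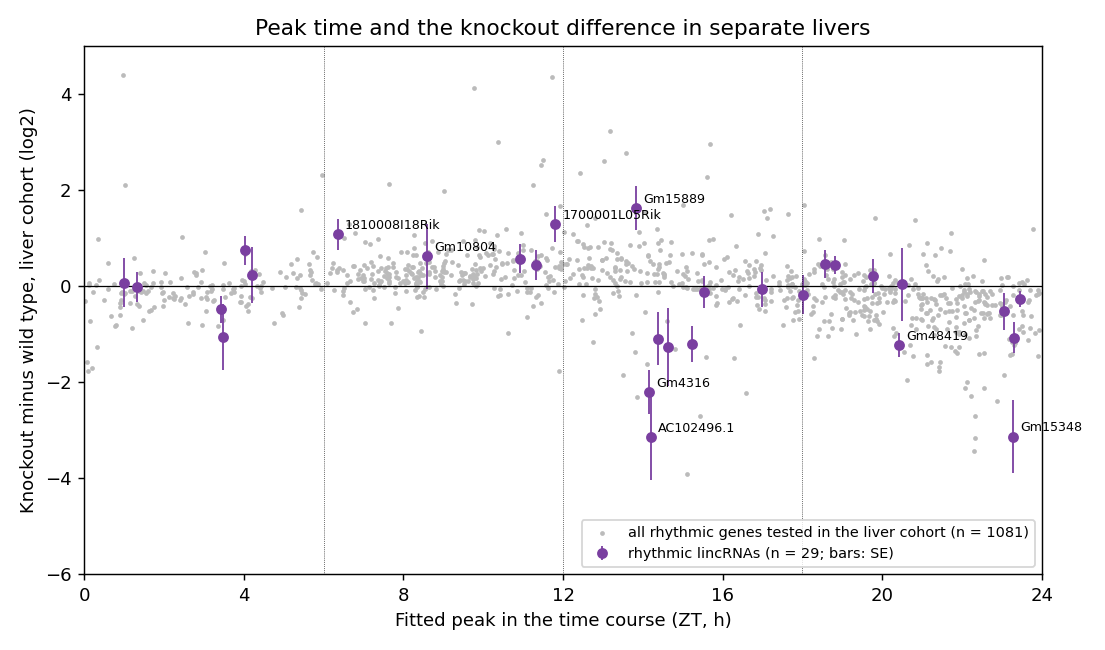
Fitted peak in the time course (ZT, h, horizontal) and knockout minus wild-type difference in the separate liver cohort (log2, vertical) of the 29 rhythmic lincRNAs (purple, bars are SE) and of the 1081 rhythmic genes tested in the cohort (grey); dotted lines mark 6 h windows. The 5 lincRNAs between ZT6 and ZT12 lie above 0, and AC102496.1, Gm4316 and Gm15348 lie lowest.

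No core clock gene was called between genotypes in limma in any table. Of the list of 19, 15 were rhythmic in the time course, where 5.8% of all genes were; 13 had an unadjusted p under 0.05 in the liver cohort, where 7.99% of all genes did, and 11 in kidney, where 5.4% did. Dbp, a clock output factor, had 401, 32.5 and 36.9 in wild-type and 1526, 1203 and 1454 in knockout livers, and Arntl had 237, 458 and 508 against 21.3, 55.3 and 34.2. In the time course 0 of 19 clock genes had an unadjusted p under 0.05 for genotype, where 5.99% of all genes did. Their part in the lincRNA differences was not tested. Of RNA decay genes, 0 of 14 nonsense-mediated decay genes had an unadjusted p under 0.05 in liver, against the same 7.99% of all genes. Another list of 15 held genes of the nuclear exosome and its adaptors, with the exonucleases Xrn1 and Xrn2. Of these 1 had such a p, Xrn2, which is not part of the exosome. The medians of these lists were -0.08 and 0.02 on the log2 scale. Kupffer cell and macrophage markers summed to 109 to 194 ppm in wild-type and 120 to 145 in knockout livers.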

How the data were processed

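The authors deposited 3 tables, kidney, liver cohort and liver time course, with a signal per gene and library that is a normalized estimated count scaled within each table, a log2 fold change and an adjusted p-value of knockout against wild type. Per the submitters' processing notes the tools include Salmon 0.12.0, R 3.6.0 and DESeq2 1.24.0 on GRCm38, and their settings are not given in the sources used here. Salmon's estimates split reads between like transcripts, and depth cannot be read from normalized values, so no interval from counting error was given.

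From these 23 libraries, log2(value + 1) of genes with a mean of at least 1 was fitted with limma 3.58.1 (R 4.3.3, variance trend), with Benjamini-Hochberg adjustment over all genes and a threshold of 0.05. Cohort tests compared genotypes within a tissue. The time course took time of collection as a block, since wild-type and knockout libraries of 1 number share a time, and the rhythm fit used 24 h cosine and sine terms with genotype. Interactions compared kidney with liver and the time course with the cohort, with no term for time of collection. A fold change on this scale understates the change of low genes. The fits were tested on simulated data. Copies were found with blastn 2.17.0+ on GENCODE vM21 transcripts (at least 200 bases at 90% identity, either strand), and 243 members matched that annotation by versioned identifier, the other 6 without the version. Kidney and liver cohort libraries carry no pairing. The alternatives were pseudocounts of 0.1 and 5, no filter or a mean of at least 10, rescaling without mitochondrial genes and Rn7s1, no variance trend, both tissues in 1 fit, no block, each genotype alone, no genotype term and leaving out libraries or times.

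Members, lists and named genes were chosen with earlier results of these data known. Named were members past a threshold, the 5 of smallest p in each test with fewer, the highest per kilobase of exon, the extremes of the tissue ratio, transcripts of known role, and the genes at the edge of the rule or left out by it.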

Additional observations from a re-analysis of the deposited data

Results flagged for a closer look

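In the time course, 53 of the named lincRNAs were examined in 106 groups of 6 libraries of 1 genotype, and in 13 groups (12.3%) 1 library stood far from the other 5; chance flags about 1 in 20 groups, and each library is another time of day. Of the 13, 6 were the highest library of a rhythmic gene. In wild type, 1700001L05Rik reached 302 at ZT12 with the next library at 156, and Gm15889 reached 104 at ZT12 with the next at 38.5. In knockout, 1810008I18Rik reached 1162 at ZT4 (next 476), Gm36041 reached 206 at ZT4 (next 83.2), Gm10804 reached 40.6 at ZT8 (next 13.5) and Gm15348 reached 15.3 at ZT0 (next 3.25).

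Gm7969 had 210 in the knockout library of ZT4 and 0 in the other knockout libraries. AY036118 had 249834 in the knockout library of ZT16, with the next at 112228, and Gm42418 had 63205 in the wild-type library of ZT8, with the next at 20175. D630033O11Rik had 123 in the knockout library of ZT0 (next 31.9). CT025731.4 had 44.6 in the knockout library of ZT8 (next 28.4), and Meg3 had 868 in that of ZT12 (next 499). Neat1 was low in the wild-type library of ZT12, at 3739, with the next lowest at 7337.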

How the results depend on the processing

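The 7 counts of called members were recomputed under 96 alternatives. The liver cohort, kidney, time-course genotype, differential rhythm and both interaction counts stayed at 0 in all of them except 1: leaving out a library of the liver cohort gave 0 to 1, and the 1 was Gm4316 without liver wild type 3. The time-course genotype count was 0 without the replicate block (time of collection left out) as with it. No paired analysis was possible for the liver and kidney cohorts because their labels carry no replicate numbers. The rhythm count of 29 moved more. It was 16 without a variance trend, 10 to 15 with 1 time point left out, and 0 with wild-type libraries only and 0 with knockout libraries only, each with 3 residual degrees of freedom. It was 22 to 29 under the pseudocounts, filters, the rescaling and without a genotype term. Without the wild-type library of ZT8, an alternative chosen after seeing the data because it has the fewest genes above 0 of the time course, it was 21, and 19 of the 29 remained. The rhythm and differential-rhythm values of named members under alternatives were counted together: 317 kept their status and 205 lost the call. The 317 include the differential-rhythm values, which were not called in the main fit and stayed so. Of their genotype values 337 kept their direction and call and 1 became called. Normalized values limit what low members such as Gm15348 and E230001N04Rik can show.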

Other observations

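The 24 h rhythm of Neat1 did not pass the test. The gene had 8571, 7789, 7337, 3739, 8772 and 8775 from ZT0 to ZT20 in wild type and 7887, 7821, 4966, 2715, 7492 and 10537 in knockout, so ZT12 was the lowest library of each genotype. The 24 h fit gave an amplitude of 0.60 and a peak at ZT22.6 (limma, adjusted p = 0.0680). Of 13 paraspeckle protein genes 2 were called rhythmic, Hnrnpk and Tardbp, where 5.8% of all genes and 7.71% of protein-coding genes at the members' level were. In kidney Neat1 had 19176 and 14756 in wild-type and 11200, 15528 and 12811 in knockout libraries, which overlap. 2900097C17Rik, the mouse Norad, also lay just outside the rhythmic members, with a small amplitude of 0.18 and a peak at ZT5.2 (limma, adjusted p = 0.0612): it was lowest at ZT16 in both genotypes, at 2385 and 2435, and highest at ZT4 in wild type and ZT8 in knockout, at 3212 and 3359.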
